A study of Mus musculus with 36 samples.

Results

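Egr1 encodes early growth response 1, a zinc finger transcription factor of the immediate early class. The gene was followed through all probes that the platform annotation names Egr1, which was 1 probe (probe row 20253) of 20355 on the array and 1 gene of 9930 with a symbol. Mouse NIH3T3 fibroblasts, an established cell line, carried an Erbb2 transgene under tet-off control, in which tetracycline is meant to shut the transgene down. Cells were sampled untreated and at 8 times of tetracycline treatment (1, 2, 4, 12 and 24 h, 3, 5 and 7 days), and their total RNA was hybridised to 36 dual-colour cDNA arrays, with 4 in each group. By the labels, every array carried RNA of untreated Erbb2-transfected cells in the other channel, while the protocols and the design text name other controls, as given below. Treated and untreated cells shared the NIH3T3 background and the transgene by these labels. The labels do not say whether these cells came from 1 clone or whether replicates were separate cultures. The p-values thus measure the spread between these arrays, which may be technical.

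Immediate early genes are transcribed within minutes of a growth signal without new protein synthesis. ERBB2 is a receptor tyrosine kinase whose signal passes through RAS, RAF and MEK to ERK, which phosphorylates the ternary complex factors that sit with SRF at the Egr1 promoter. EGR1 protein binds GC-rich sites in its target genes, and its activity is held back by the corepressors NAB1 and NAB2. In growing fibroblasts the gene is known as a sensitive readout of serum, growth factor and ERK activity.

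The EGR binding motif was looked for in genes that textbooks list as EGR1 targets. The letters GCGNGGGCG were searched on both strands of RefSeq windows of GRCm38.p6 around gene starts. Of 14 measured genes of that list with a window, 2 held a match (14.3%), against 1695 of 27025 genes in all (6.27%). The stretches before the start of these 2 genes are given in the direction of transcription, with the matched letters in capitals. In Tgfb1, which encodes a growth factor of matrix production, the stretch is chr7:25686860-25686908 on the plus strand, and the match lies on the opposite strand. In Mmp14, which encodes a membrane-bound matrix protease, it is chr14:54431561-54431597 on the plus strand.
Tgfb1: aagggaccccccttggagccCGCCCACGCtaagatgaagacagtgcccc
Mmp14: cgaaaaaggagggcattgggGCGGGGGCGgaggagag
A match is a description of the letters, not of binding. Neither gene was called at any time from 1 h to 3 days, the times for which this list is given below.

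The arrays were handled as follows before any comparison. The values are log2 ratios of the 2 channels. Replicates 1 and 2 of each group carried the treated cells in Cy5 and replicates 3 and 4 carried them in Cy3, so the Cy3 arrays were multiplied by -1 after each array had been centred on its median. A positive value then stands for more RNA in the treated cells. This direction assumes that the ratios were taken as Cy5 over Cy3, which no source states. With the other numerator every sign below turns round, and the sizes stay. The labels name the untreated Erbb2 cells as the common channel, while the protocols speak of organs and of a pool of control animals and the design text of 2 different untreated lines as control, so what the untreated arrays compare is not settled. The columns of untreated replicates 1 and 2 were the same but for an offset of 0.771 (SD 0.00051 over 19840 values) and were counted as 1 array, which left 3. The interquartile range of the log2 values was 0.752 to 1.42 on the 3d arrays and 0.697 to 0.845 on the 5d and 7d arrays. For 1 h to 24 h it was 0.357 to 0.504, and for untreated arrays 0.492 to 0.7. Between 17508 and 20010 probes per array carried a value. Arrays carry no read depth, and their number limits the precision. No probe is named Erbb2, so the transgene itself was not analysed here.

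Egr1 was low from 2 h to 3 days of tetracycline and above the untreated cells at 7 days. Its mean log2 ratio was near that of the untreated arrays at 1 h, 6.05-fold below the common channel at 2 h, 12.7-fold below it at 24 h and 3.52-fold below it at 3 days. At 7 days it stood 2.91-fold above the common channel. The plot of Egr1 on every array shows this course.

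**Figure D1:**
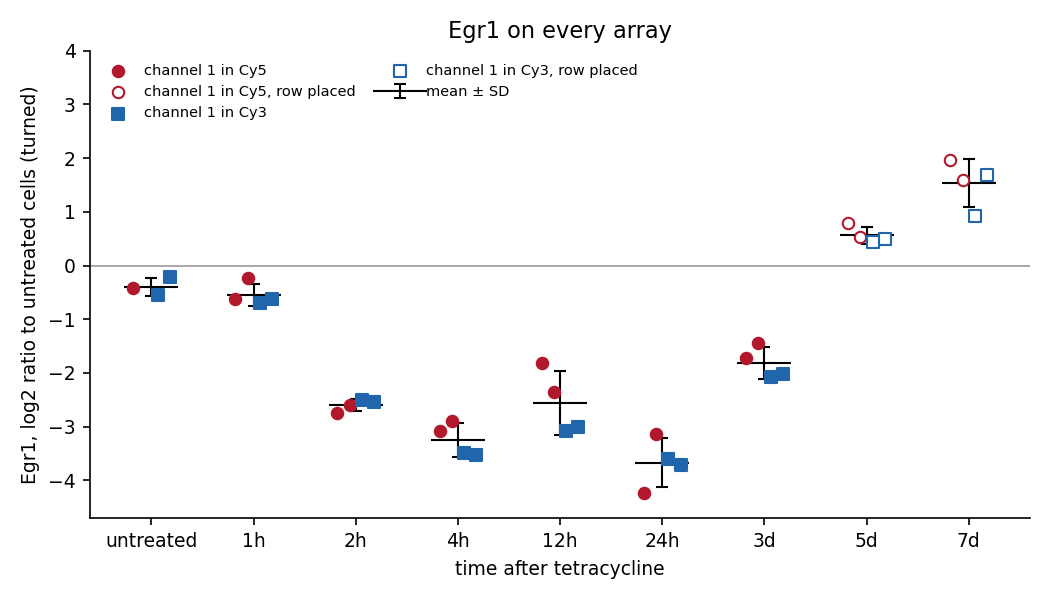
Log2 ratio of Egr1 to the common untreated channel on each array, by time after tetracycline, with the Cy3 arrays turned; circles carried channel 1 in Cy5 and squares in Cy3, open symbols are rows placed as described in the text, and bars give the mean ± SD (n = 3 untreated, n = 4 at each time). The arrays of 2 h to 3 days lie between -4.24 and -1.45, below all untreated arrays, and those of 5 and 7 days lie above 0.

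At 1 h Egr1 read -0.62, -0.24, -0.70 and -0.63, a mean of -0.55 ± 0.21 (SD, n = 4). In the untreated arrays it read -0.43, -0.56 and -0.22, a mean of -0.40 ± 0.17 (SD, n = 3), and the groups overlapped. The difference of -0.20 on the log2 scale (SE 0.25, 95% confidence interval -0.71 to 0.31) did not pass the test in limma, fitted with group means and 1 dye effect for each probe (adjusted p = 0.99993 over 18269 probes, of which 0.203% passed). A fall of more than 0.71 at this time lies outside that interval. Against 0, the value that equal RNA in both channels would give, the 1 h mean missed the threshold (adjusted p = 0.153) and so did the untreated arrays (-0.35 in the fit, SE 0.19, adjusted p = 0.922).

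At 2 h Egr1 read -2.74, -2.60, -2.51 and -2.54, close to each other and far below all untreated arrays. The mean of -2.60 ± 0.11 (SD, n = 4), against -0.40 in untreated arrays, was lower: Egr1 fell by 2.24 (log2, limma SE 0.25, adjusted p = 8.23e-05). Of 18505 probes, 0.524% passed at this time and 0.103% passed as lower. Between neighbouring times up to 3 days this was the largest step, and Egr1 fell by 2.05 against 1 h (SE 0.23, limma adjusted p = 0.000202, where 0.0211% of probes passed).

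At 4 h the arrays read -3.08, -2.89, -3.50 and -3.52, with a mean of -3.25 ± 0.31 (SD, n = 4). All 4 lay below all 2 h arrays. Against untreated arrays Egr1 fell by 2.90 (SE 0.25, limma adjusted p = 1.82e-06), where 0.156% of probes passed, 0.0483% as lower. The step after 2 h, -0.65 (SE 0.23), did not pass over all probes (limma adjusted p = 0.99994), and the exact permutation test of the 4 against 4 arrays gave p = 0.0286, the smallest this design allows.

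The 12 h arrays were the most uneven, at -1.82, -2.35, -3.07 and -3.001. The replicates with treated cells in Cy5 were the weaker pair there, with a mean of -2.08 against -3.04 in Cy3, the widest dye gap of the 9 groups. The mean of -2.56 ± 0.59 (SD, n = 4) was below untreated arrays, and Egr1 fell by 2.21 (SE 0.25, limma adjusted p = 0.000214) in a comparison where 0.0275% of probes passed, 0.0165% as lower. With quantile normalization this call ended (-2.10, adjusted p = 0.0688). Between 4 h and 12 h Egr1 differed by 0.69 (SE 0.23), which did not pass over all probes (limma adjusted p = 0.930), and the groups overlapped (exact permutation p = 0.114).

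At 24 h Egr1 read -4.24, -3.14, -3.60 and -3.72, the lowest level of the course. The mean of -3.67 ± 0.45 (SD, n = 4) was far below untreated arrays, and Egr1 fell by 3.32 (SE 0.25, limma adjusted p = 1.38e-07), where 0.0331% of probes passed, 0.011% as lower. The groups of 24 h and 12 h did not overlap, but the step between them missed the threshold over all probes (-1.11, SE 0.23, limma adjusted p = 0.383; exact permutation p = 0.0286).

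At 3 days the ratio had come part of the way back. Egr1 read -1.72, -1.45, -2.08 and -2.01, a mean of -1.82 ± 0.29 (SD, n = 4), above all 24 h arrays and below all untreated ones. The rise against 24 h was 1.86 (SE 0.23, limma adjusted p = 0.000165, where 1.19% of probes passed). Against untreated arrays Egr1 was still lower, as it fell by 1.46 (SE 0.25, limma adjusted p = 0.00637) in a comparison where 1.27% of probes passed, 0.603% as lower. The 3d arrays have the widest spread of log2 values of the series, as given above, and the part of that spread in this result was not tested. With array weights the call ended (-1.49, adjusted p = 0.170), and with quantile normalization the difference was -0.77 (adjusted p = 0.665). The array weights were low for the 3d arrays, from 0.0858 to 0.444, and also for untreated replicate 1, at 0.217.

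Over 1 to 24 h as a whole, the mean of the 20 treated arrays lay below that of the untreated ones (-2.17 on the log2 scale, SE 0.20, limma adjusted p = 7.19e-06, where 0.367% of probes passed). The exact two-sided permutation test of these 20 arrays against the 3 untreated ones gave p = 0.00339, with 0.000565 the smallest possible. For each of 2, 4, 12 and 24 h and 3 days alone it gave 0.0286, the smallest that 4 against 3 arrays allow, and for 1 h it gave 0.343. By the moderated F over all 6 times, Egr1 ranked 2 of 16444 probes (adjusted p = 4.27e-08, with 2.13% of probes passing).

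The sign of Egr1 turned with the dye on every treated array. Before turning, the centred values averaged -2.67 in Cy5 and 2.52 in Cy3 at 2 h. At 24 h they averaged -3.69 in Cy5 and 3.66 in Cy3. At 3 days they averaged -1.58 in Cy5 and 2.05 in Cy3. The 2 orientations thus mirrored each other, as the plot of the values before turning shows, and their turned means lay 0.24 apart at 1 h, 0.15 at 2 h, 0.53 at 4 h, 0.96 at 12 h, 0.03 at 24 h and 0.47 at 3 days. Were the Cy3 arrays left as deposited, the groups would average -0.08 at 2 h, 0.26 at 4 h, 0.48 at 12 h, -0.02 at 24 h and 0.23 at 3 days, and Egr1 would pass at no time. The dye effect fitted for the probe was 0.15 (SE 0.06, adjusted p = 0.246), small beside its differences between times.

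**Figure D2:**
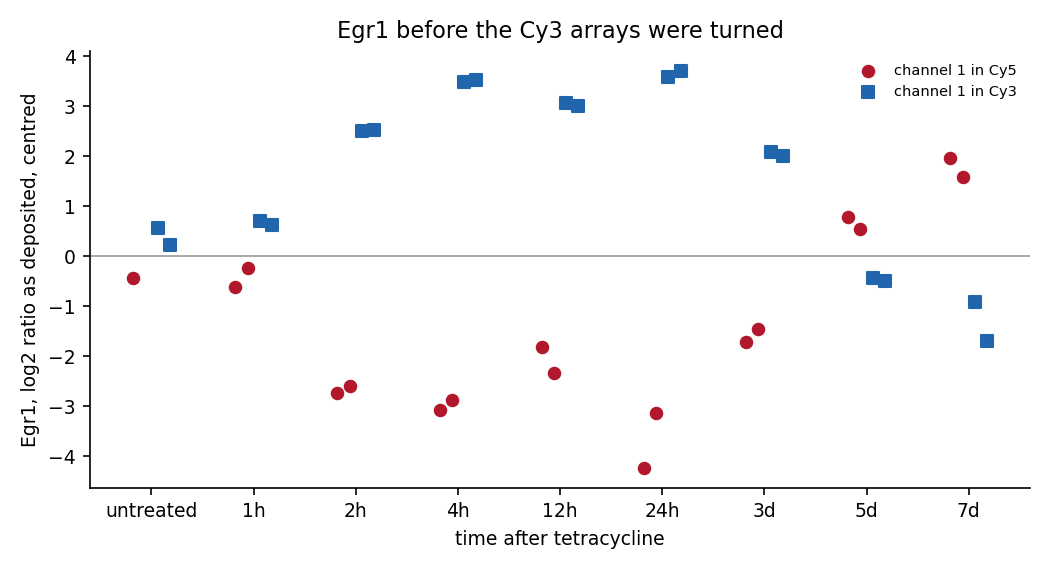
Centred log2 ratio of Egr1 on each array before turning, by time after tetracycline; circles carried channel 1 in Cy5 and squares in Cy3. From 1 h to 3 days all Cy5 arrays lie below 0 and all Cy3 arrays above it, and at 5 and 7 days the sides are exchanged.

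Few other probes had a course of this kind. After turning, 1 of 13804 probes with a value on all 24 arrays of 1 h to 3 days was below 0 on all of them (0.007%). That was Egr1, while 35 probes (0.254%) were above 0 on all. Egr1 was below 0 on the 3 untreated arrays too, so its sign at 1 h was shared with them and is no mark of treatment. A mean of -1 or lower at each of 2, 4, 12 and 24 h and 3 days was met by 1 of these 13804 probes, again Egr1. The rank of its mean ratio to the common channel was taken from the bottom, among probes with a value on all 4 arrays. Egr1 ranked 1 of 18763 probes at 2 h, 1 of 19209 at 4 h, 1 of 17587 at 12 h and 1 of 17578 at 24 h. At 1 h it ranked 438 of 18026 and at 3 days 17 of 14722. By the size of the limma difference from untreated arrays, in either direction, Egr1 stood lower in the order. There it ranked 58 of 18505 at 2 h, 16 of 18617 at 4 h and 76 of 18151 at 12 h. At 24 h that rank was 11 of 18125, and at 3 days 610 of 17085. Its SD between arrays was 0.11 at 2 h, where the median probe had 0.21, and 0.59 at 12 h, where the median probe had 0.27. These are descriptions of the ratio on 1 probe, and levels of different genes cannot be compared from ratios.

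**Figure D3:**
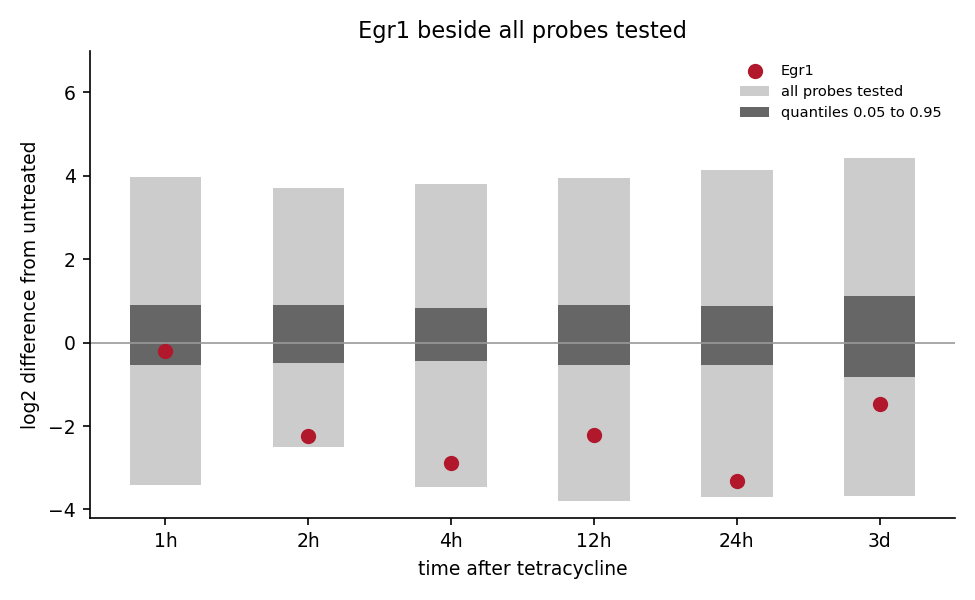
Log2 difference from untreated arrays in the limma fit at each time, with Egr1 as the red point; light bars span all probes tested and dark bars their quantiles 0.05 to 0.95. Egr1 lies inside the dark bar at 1 h and below it from 2 h to 3 days.

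The arrays of 5 and 7 days needed a further step. On all 8 of them the deposited values slide against the probe rows, so row 20253 does not hold Egr1 there. The displacement along each array was estimated from which rows lack a value and from the size of the log ratios of the other probes, without the sign and without the Egr1 row. The same procedure placed Egr1 at its own row on all 27 arrays used above. It found no slide before that row on them, so this does not test a placement soon after a change. On the late arrays the last change before Egr1 lay between rows 20210 and 20228. On 4h replicate 1, used as deposited, the procedure also gave a displacement of 14 rows up from row 20314 on, after Egr1. On 7 of the 8 late arrays the value of Egr1 was found 8 rows up, in row 20245, and on 7d replicate 3 it was found 9 rows up, in row 20244. The posterior probability was 0.983 to 0.9997 on the 7d arrays, 0.996 and 0.9997 on 5d replicates 3 and 4, and 0.931 and 0.937 on 5d replicates 1 and 2, below the 0.95 asked for. On 7d replicate 3 the next row, where a displacement of 8 would put it, held 0.73 in place of 0.92.

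With the rows so placed, Egr1 was above 0 on all 8 late arrays. At 5 days it read 0.80, 0.54, 0.44 and 0.49, a mean of 0.56 ± 0.16 (SD, n = 4), and at 7 days it read 1.97, 1.59, 0.92 and 1.69, a mean of 1.54 ± 0.45 (SD, n = 4). All 7d arrays lay above all 5d arrays, which lay above all untreated and all earlier treated arrays. The order of the late arrays rests on the placement. With a displacement of 8 rows 7d replicate 3 would read 0.73, below 5d replicate 1 at 0.80. That 5d array had a posterior probability of 0.931, below the 0.95 asked for. The sign again turned with the dye, with means before turning of 1.78 in Cy5 and -1.31 in Cy3 at 7 days. Of 14319 probes placed on all 8 late arrays, 3.37% were above 0 on all and 2.63% below, so a shared sign there is less rare than on the earlier arrays.

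In a fit of all 35 arrays, chosen after the data were seen, Egr1 at 7 days was 1.89 higher than in untreated arrays on the log2 scale (SE 0.25, limma adjusted p = 0.00011), where 1.13% of 17053 probes passed. It was 3.36 higher than at 3 days (limma adjusted p = 1.41e-09, where 1.99% of probes passed). Against 24 h it was 5.22 higher (SE 0.23, limma adjusted p = 5.08e-14, where 1.61% passed), a 37.1-fold difference between these times. The 5d group was not tested, since only 2 of its arrays met the placement threshold. The difference of 7 days from untreated arrays was 1.55 and missed the threshold with quantile normalization (adjusted p = 0.0563), while that from 24 h passed in every fit in which the Cy3 arrays were turned.

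Among the immediate early genes, Egr1 was the member called lower from 2 h to 3 days, and which others were called beside it depended on the fit. Of 42 listed genes, 32 were on the array and 25 to 28 could be tested at a time, with the probes of a gene averaged. Here and below, shares and medians of all genes also take in probes without a symbol. They thus rest on more entries than the 9930 symbols. At 1 h limma called 0 of 25, with 3 at an unadjusted p under 0.05 (0.209% of all genes passed). At 2 h Egr1 fell, Ier3 rose and 24 of 26 did not pass (0.532% of all genes). At 4 h, 12 h, 24 h and 3 days Egr1 was the 1 member called, of 28, 28, 26 and 25 tested, where 0.192%, 0.0135%, 0.0203% and 0.965% of all genes passed. Over the list the median difference was 0.01 at 1 h, 0.12 at 2 h, -0.04 at 4 h, -0.16 at 12 h, -0.16 at 24 h and -0.10 at 3 days, and over all genes it lay between -0.004 and 0.015. Without untreated replicate 1 the members called were 1, 4, 3, 2, 2 and 3 at 1 h to 3 days, with Egr1 among them from 2 h on. With array weights they were 2, 5, 3, 4, 3 and 0. There Egr1 and Ier2 fell at 2, 4, 12 and 24 h, Plk2 at 12 and 24 h and Mcl1 at 12 h. Rises were called too: Fosl1 at 1, 2 and 4 h in both of these fits, and Ier3 in both at 2 h. Errfi1 rose at 1 and 2 h with array weights, and Atf3 at 4 h without untreated replicate 1. Without the 3d arrays Errfi1 rose at 1 h and Plk2 fell beside Egr1 at 12 and 24 h. With quantile normalization 0 members were called at 12 h and at 3 days. Whether Egr1 differs from the list was not tested.

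**Figure D4:**
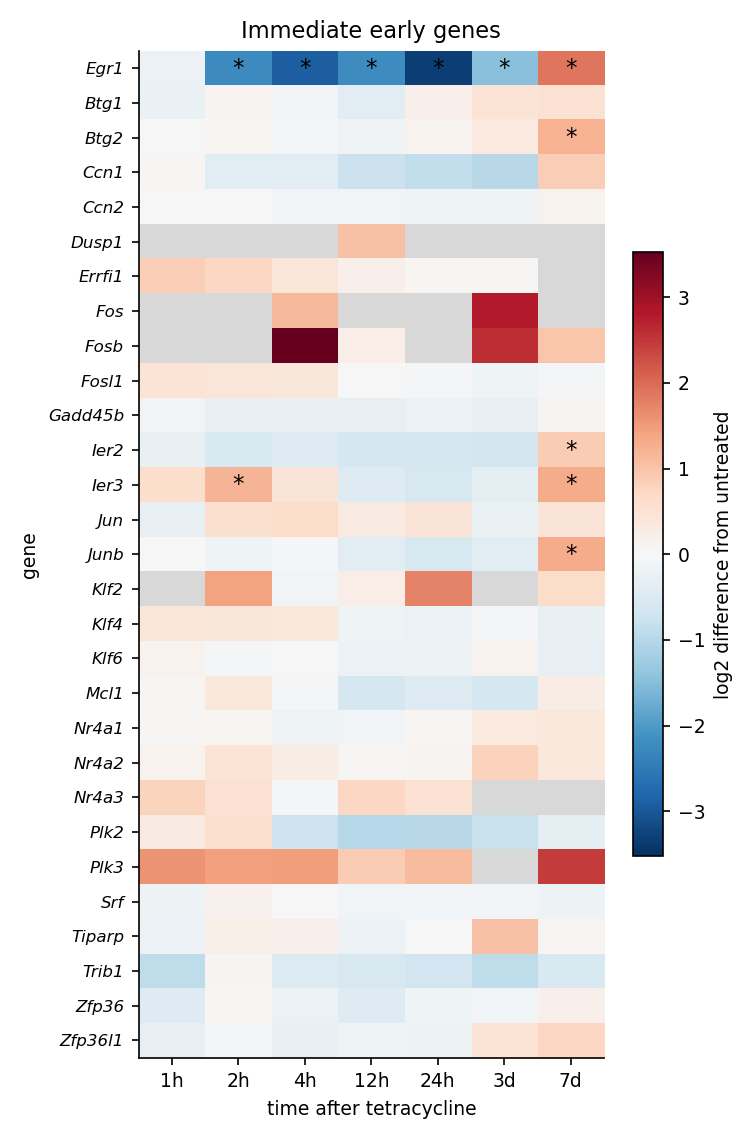
Log2 difference from untreated arrays for each measured immediate early gene at 1 h to 3 days and at 7 days, in colour, with grey for too few values and an asterisk for a limma adjusted p under 0.05 over all genes. Egr1, in the top row, is called lower at 5 times and higher at 7 days, when Ier3, Junb, Btg2 and Ier2 are called higher too.

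Ier3, which encodes a short-lived membrane-associated protein of cell survival, moved the other way at first. It read 1.01, 1.496, 1.15 and 1.05 at 2 h, against -0.15, 0.04 and 0.06 in untreated arrays. That rise of 1.20 on the log2 scale (SE 0.17) passed (limma adjusted p = 0.00101). By 24 h Ier3 differed by -0.57, which did not pass.

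Further members in the order of the list did not pass in the main fit at any of these times, though Fosl1 and Ier2 did in other fits given above. Fosl1, for the AP-1 subunit FRA1, differed by 0.48 at 1 h and -0.04 at 24 h. Jun, for the AP-1 subunit c-JUN, differed by 0.56 at 2 h and -0.25 at 3 days. Junb, for another AP-1 subunit, differed by -0.16 at 2 h and -0.57 at 24 h. Ier2, a nuclear immediate early protein gene, had a lower mean than the untreated arrays at every time. Its differences were -0.26 at 1 h, -0.54 at 2 h, -0.45 at 4 h, -0.61 at 12 h and 24 h and -0.66 at 3 days. Its arrays overlapped the untreated ones at 1 h, 4 h and 3 days. Fos itself had enough values only at 4 h and 3 days, and Egr2, Egr3 and Egr4 were not analysed here.

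At 7 days, in the 35-array fit, Egr1 was no longer alone. Of 25 immediate early genes tested, 5 rose and the other 20 did not pass. Of 14027 genes and probes without a symbol, 0.877% passed, 0.485% as higher. The median difference was 0.38 over the list and 0.0005 over all genes. The 5 were Egr1, Ier3, Junb, Btg2 and Ier2. Plk3, at 2.47 with a limma adjusted p of 0.483, was the 1 tested member with a larger difference than Egr1.

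Junb read 1.19, 1.26, 1.01 and 1.09 at 7 days, against -0.15, -0.30 and -0.04 in untreated arrays, a rise of 1.30 (SE 0.21, limma adjusted p = 0.00122). Ier3 read 1.53, 1.54, 1.03 and 1.13, against -0.15, 0.04 and 0.06 in untreated arrays, a rise of 1.31 (SE 0.18, limma adjusted p = 9.39e-05). Btg2, for an antiproliferative protein, rose by 1.23 (SE 0.26, limma adjusted p = 0.0134), and Ier2 by 0.90 (SE 0.19, limma adjusted p = 0.0148). In all 4 genes each 7d array lay above each untreated array. At 5 days their means were 0.92 for Ier3, 0.52 for Btg2, 0.37 for Junb and 0.24 for Ier2, between those of 3 and 7 days in each gene. The low values of Egr1 from 2 h to 3 days have no counterpart of that size in these genes, whose means at those times were no lower than -0.75.

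The count at 7 days depended on the fit. Leaving out 1 array of 7 days or of the untreated group gave 4 or 5 genes, and Egr1, Ier3 and Junb passed in each of these fits. With quantile normalization 2 passed, Ier3 and Junb, and with a dye effect for each group 8 did.

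**Figure D5:**
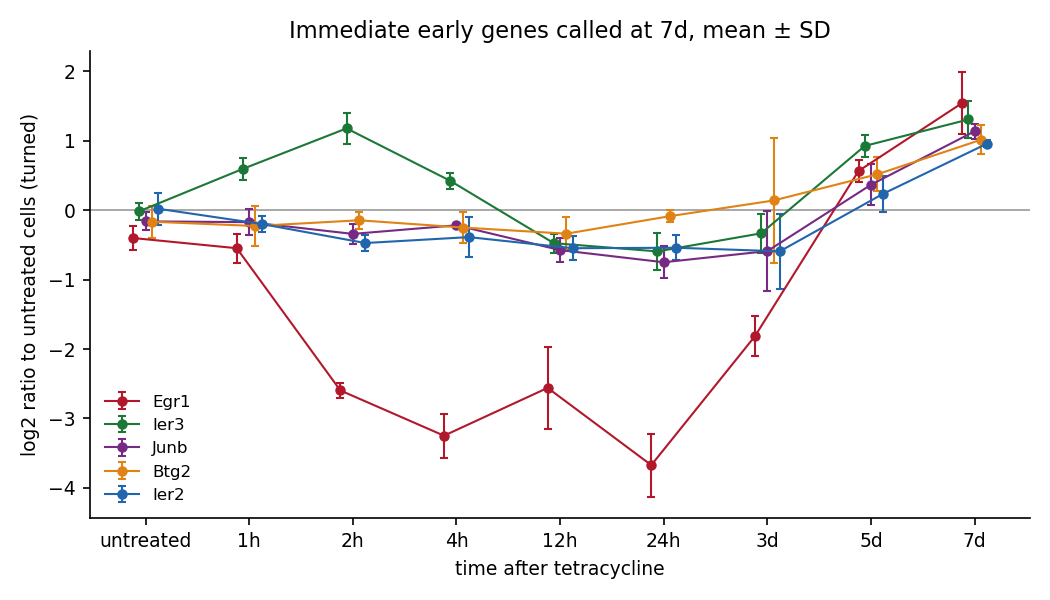
Mean log2 ratio ± SD to the common untreated channel for the 5 immediate early genes called at 7 days, by time after tetracycline (n = 3 untreated arrays and n = 4 at each time, with rows of 5 and 7 days placed, and with the 2 arrays of 5 days below the placement threshold kept for Egr1). Egr1 runs far below the other genes from 2 h to 3 days, and all 5 means lie above 0 at 5 and 7 days.

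Genes upstream of Egr1 were covered in part. Of 26 genes of the route from ERBB2 to ERK and SRF, 14 were on the array, 11 to 13 could be tested at a time, and limma called 0 at each time from 1 h to 3 days, with 0 to 3 at an unadjusted p under 0.05. With 0.0135% to 0.965% of all genes passing at these times, a count of 0 in a list of this size is near the background. At 2 h, where Egr1 first fell, Egfr, the receptor that pairs with ERBB2, differed by 0.17, and the adaptor genes Grb2 and Shc1 by -0.01 and 0.52. Map2k1, for the kinase MEK1, differed by 0.76, and Srf by 0.14. These ratios are of RNA and say nothing of the phosphorylation through which the route works.

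Genes that ERK is known to induce as feedback and output were thinly covered, with 5 of 17 on the array. The main limma fit called 0 at any of these times (0 or 1 at an unadjusted p under 0.05), where 0.0135% to 0.965% of all genes passed. Fosl1, which is on this list too, was called higher in other fits, as given above. At 2 h Dusp4, for a phosphatase of ERK, differed by -0.32, Spry2, for a feedback inhibitor, by -0.45, and the transcription factor genes Etv4 and Etv5 by 0.68 and 0.72.

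Of the corepressors and listed targets of EGR1, 18 of 27 genes were on the array and 15 to 17 could be tested. Limma called 0 at any of these times (0 to 3 at an unadjusted p under 0.05), which again is near the share of all genes that passed, 0.0135% to 0.965%. The corepressor gene Nab2 differed by 0.67 at 1 h, 0.16 at 2 h, 0.26 at 24 h and 0.88 at 3 days (SE 0.40 at each). The growth factor gene Pdgfa differed by -0.23 at 24 h, Pdgfb by -0.24 and Tgfb1 by 0.04, when Egr1 was at its lowest. Fn1, for the matrix protein fibronectin, differed by -0.34 then. Mmp14, whose motif is shown above, differed by 0.28. The list's median difference at 24 h was -0.06, against -0.004 over all genes.

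By the correlation of values over the 27 arrays, the named probes most like Egr1 among 9434 were those of Med15, a subunit of the Mediator complex (Pearson r 0.65), Fndc3b (0.62), Arhgap19 (0.61) and Morc2b (0.57). Next were Ier2 (0.57), then Crygf, Scyl3, Ucma, Nfkbia and Ergic1 (0.55 to 0.56). The most opposite were S100a11, for a calcium-binding protein (-0.70), Dnajb8 (-0.68), Pcolce (-0.65), Calm3 (-0.64) and Usp40 (-0.64). The arrays share groups and dye orientations, so these values describe a likeness and no p is given. None of the 10 came near the size of Egr1: at 24 h, where Egr1 averaged -3.67, Nfkbia, for the inhibitor of NF-kappaB, averaged -0.96 and the other 9 between -0.54 and -0.02.

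Some markers of the labelled cell type changed at some of the same times as Egr1 and at 1 h, before it. Of 9 fibroblast markers tested, Col1a1, Col1a2, Col3a1 and Dcn fell at 1 h (0.209% of all genes passed), when Egr1 did not pass. Col1a1, Col3a1 and Dcn fell at 2 h (0.532% of all genes) and Col1a1 and Dcn at 4 h (0.192%), when Egr1 fell too. Col1a1 and Dcn rose at 3 days (0.965%), when Egr1 was still lower than in untreated arrays. At 12 h and 24 h limma called 0 of 9, with 1 and 2 at an unadjusted p under 0.05. The part of these changes in the result on Egr1 was not tested. Col1a1, for a collagen chain, differed by -1.28 at 1 h, -0.80 at 2 h, 0.19 at 24 h and 0.62 at 3 days. Dcn, for the proteoglycan decorin, differed by -1.83 at 1 h, -1.26 at 2 h, -0.79 at 24 h and 0.89 at 3 days. The fibroblast list did not move as 1. At 2 h 6 of the 9 did not pass. Of these, S100a4 differed by 0.93, Vim by 0.49 and Thy1 by 0.10. Col1a2 differed by -0.81, Pdgfra by -0.21 and Pdgfrb by -0.13. At 3 days 7 did not pass, and Vim had the lowest difference of the list. Markers of epithelial cells, leukocytes, endothelium and muscle gave 0 limma calls at any time, with at most 1 gene of each list at an unadjusted p under 0.05. Ratios show a change and not a level, so they cannot show whether a marker is expressed, and fewer cells of a type and less RNA per cell cannot be told apart.

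The result on Egr1 rests on a single probe near the end of the table. Probes of the same gene had correlated means over the 6 times where the annotation was used as given, with a Spearman rho of 0.08 over 6684 probes of rows 1 to 20151. In rows 20152 to 20355, which hold Egr1, the same measure was -0.005 over 53 probes, and with the names moved by up to 8 rows it ran from -0.10 to 0.11 with no shift standing apart. So few probes cannot show a correlation of 0.08, so this check leaves the naming of the last block undecided, and no other Egr1 probe could be set beside this one.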

How the data were processed

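The deposited values are log2 ratios of 2 channels on 36 dual-colour cDNA arrays, per the labels. Software, background correction, normalization and genome build are not given in the sources used here. Probe names came from the platform annotation, updated through gene identifiers: 14030 probes carried 1 symbol, 5 several and 6320 none.

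Values above 12, a ceiling in the files, were dropped, arrays were centred on their medians, and the sign of replicates 3 and 4, whose channel 1 was in Cy3, was turned. Untreated replicates 1 and 2 were averaged. The 27 arrays of the untreated group and 1 h to 3 days entered 1 linear model (limma 3.58.1, R 4.3.3) with group means and a dye effect, followed by eBayes, tested on simulated data. Probes needed 3 values in each group compared, and p-values were adjusted by Benjamini-Hochberg over all probes tested, with 0.05 as the threshold. List counts used the mean of a gene's probes. Alternatives covered the dye term, turning, centring, normalization, weights, filters and each array left out. Named genes were every member called, 4 further in list order, and the 10 most and 5 least correlated probes. The gene, the lists and the placement of the late rows were chosen with earlier results of these data known. Same-numbered arrays of different groups did not deviate together (78 pairs, median correlation of residuals -0.03, 7 above 0.1), so the main fit did not pair arrays by number. Whether replicates within a group share RNA was not tested.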

Additional observations from a re-analysis of the deposited data

Results flagged for a closer look

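The arrays of 5 and 7 days lie outside the planned comparisons, and carried a signal for Egr1 above that of the untreated arrays once their rows were placed. At 7 days the mean of the placed values was 1.543 on the log2 scale, with 4 of 4 arrays above 0, and at 5 days it was 0.564, also with 4 of 4 above 0, while all 3 untreated arrays were below 0. The rows one before and one after the placed row had no such common sign at 5 days. In none of the 8 treated groups did the highest or lowest array stand off from the others by Dixon's criterion, although 1 h came close with a gap of 0.818 of its range, just under the critical value.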

How the results depend on the processing

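The direction of Egr1 was kept in every fit with the Cy3 arrays turned. Leaving out any 1 array ended no call of Egr1. With the Cy3 arrays not turned every call ended. The differences from untreated arrays were then 0.54 at 2 h, 0.88 at 4 h, 1.10 at 12 h, 0.60 at 24 h, 0.85 at 3 days, 0.69 at 7 days and 0.77 over 1 to 24 h, and those from 0 were -0.075 at 2 h, 0.26 at 4 h, 0.48 at 12 h, -0.0155 at 24 h and 0.23 at 3 days. The steps were -0.20 from 1 h to 2 h, 0.25 from 24 h to 3 days and 0.25 from 24 h to 7 days, and F was 0.24. Fitted on the arrays of 1 time and the untreated group alone, which leaves few arrays to estimate the spread, the differences stayed at -2.18, -2.90, -2.25, -3.26 and -1.46 at 2, 4, 12 and 24 h and 3 days and 1.90 at 7 days, and did not pass (adjusted p 0.0909 to 0.968). Quantile normalization ended the calls at 12 h (-2.10, adjusted p = 0.0688), 3 days (-0.77, and -1.10 against 0) and 7 days (1.55), and made one of the step from 4 h to 12 h (1.64, adjusted p = 0.0357). Array weights ended those at 3 days (-1.49, and -1.80 against 0) and of the step from 24 h (1.88), and made one of 1 h against 0 (-0.54, adjusted p = 0.0404). The causes were not tested. The replicate block changed no call of Egr1, with -2.29 at 2 h and -3.37 at 24 h, though it moved the counts of all probes called at 1, 4, 12 and 24 h to 24, 8, 1 and 3.

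Counts of all probes called were far less stable than Egr1. They were 37, 97, 29, 5, 6 and 217 at 1 h to 3 days, and 0 at each when fitted on 1 time and the untreated group alone. They reached 677, 1232 and 577 at 1, 2 and 4 h with array weights, 734 at 12 h and 4023 at 3 days with the Cy3 arrays not turned, and 455 at 24 h without untreated replicate 1. Without that array the immediate early genes called were 1, 4, 3, 2, 2 and 3 at 1 h to 3 days. Ier2 fell beside Egr1 at 2, 12 and 24 h and 3 days, and Mcl1 fell at 3 days. Fosl1 rose at 1, 2 and 4 h, Ier3 at 2 h and Atf3 at 4 h.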
